A study of Mus musculus with 5 samples.

Results

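Cd4, Zbtb7b and Runx3 are 3 genes that control coreceptor choice in T cells, and their chromosomal neighbourhoods were followed here across 5 ATAC-seq libraries of mouse thymocytes. ATAC-seq uses a transposase that cuts and tags open DNA, so a peak marks a stretch of accessible chromatin. The members are the peaks that overlap a fixed window around each gene on mm9. The windows run on chromosome 6 over 124780000 to 124880000 (Cd4, 100 kb), on chromosome 3 over 89150000 to 89230000 (Zbtb7b, 80 kb) and on chromosome 4 over 134630000 to 134790000 (Runx3, 160 kb). They held 32 of 63932 transgenic SOX13hi peaks, 16 of 33155 transgenic SOX13lo peaks, 24 of 54435 SOX13hi peaks, 35 of 67482 SOX13lo peaks and 89 of 113877 DP peaks. Peaks that overlap by at least 1 bp in any of the lists were merged into regions, and the windows held 104 of the 157434 regions (50 around Cd4, 20 around Zbtb7b and 34 around Runx3).

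The γδ T cell libraries came from CD24+ γδ thymocytes of TCRbeta knockout animals heterozygous for an ECFP knock-in at Sox13, so that CFP reports Sox13 expression. Cells with high CFP form the SOX13hi fraction, and cells with low or no CFP form SOX13lo. The transgenic fractions carried a Sox13 transgene in addition, and the promoter that drives it is not given in the sources used here. DP cells, thymocytes that carry both CD4 and CD8, came from wild-type C57BL/6 animals, the strain given for every library. By genotype label the transgenic animals are TCRbeta KO.Sox13tg+.Sox13 ECFP KI/+ and the others TCRbeta KO.Sox13 ECFP KI/+. Each library, γδ or DP, is listed with 40000 sorted cells. Each group is 1 library, so no comparison has a replicate check and no p-value is given. In every comparison with DP, cell type, TCRbeta genotype and the Sox13 ECFP knock-in cannot be told apart. Where a transgenic library is compared with DP, the Sox13 transgene cannot be told apart from these either. The labels give neither the age of the animals nor whether animals were pooled.

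CD4 and CD8 are the coreceptors of αβ T cells. A DP thymocyte that commits to the CD4 lineage keeps Cd4 on through ThPOK, the zinc finger factor encoded by Zbtb7b, while commitment to the CD8 lineage uses RUNX3, a RUNT-domain factor that acts on a silencer in Cd4 and on Zbtb7b. Cd4 is further controlled by a proximal enhancer upstream of the gene, and Runx3 has a distal and a proximal promoter. Most mouse γδ thymocytes carry neither coreceptor at high levels, although some γδ T cells make ThPOK.

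Before the values, the letters of promoters of these genes that match a RUNX motif are given. Sequences of 300 bases, from 250 before to 50 after a RefSeq gene start, were matched for 2 of the 3 genes, Zbtb7b and Runx3. Each gene had a pair of them on the GRCm38.p6 build. The motif searched was the RUNX core ACCACA, on both strands (TGTGGT on the other). It was found in 16.8% of all 32851 promoters of the table. The 2 promoters shown are those of the 4 that hold it. Capitals mark the motif.
Runx3 promoter 1, chr4:135120395-135120694, plus strand: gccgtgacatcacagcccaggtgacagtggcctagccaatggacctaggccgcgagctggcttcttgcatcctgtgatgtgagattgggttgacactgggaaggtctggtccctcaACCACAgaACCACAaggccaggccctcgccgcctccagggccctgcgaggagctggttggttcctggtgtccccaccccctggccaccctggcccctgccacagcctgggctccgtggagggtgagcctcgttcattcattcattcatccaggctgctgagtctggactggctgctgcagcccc
Zbtb7b promoter 2, chr3:89387622-89387921, minus strand: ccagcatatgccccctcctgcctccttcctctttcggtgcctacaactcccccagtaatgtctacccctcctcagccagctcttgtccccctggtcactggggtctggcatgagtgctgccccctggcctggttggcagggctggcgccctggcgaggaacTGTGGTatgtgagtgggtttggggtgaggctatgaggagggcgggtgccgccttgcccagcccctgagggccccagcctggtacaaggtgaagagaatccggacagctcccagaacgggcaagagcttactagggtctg
In the first Runx3 promoter the motif occurs 2 times, starting 134 and 126 bases before the gene start and not overlapping, and 1.81% of all promoters hold it at least 2 times. In Zbtb7b promoter 2 the motif occurs 1 time, starting 89 bases before the gene start. The second Runx3 promoter (chr4:135152295-135152594) and the first Zbtb7b promoter (chr3:89393329-89393628) hold none. None of the 4 holds, on either strand, the motif AGATAA of GATA factors, which 11.2% of all promoters hold. The same is true of CTTTGA, a TCF/LEF motif held by 16%, and of AACAAT, a SOX motif held by 10.7%. A match is a run of letters and not a measured binding site. The peaks lie on mm9, so these coordinates cannot be set beside those of the peaks, and no peak was placed on a promoter, exon or intron. In the GRCm38 gene table Cd4 is 23.6 kb long and lies between Gpr162 and Lag3. Zbtb7b is 16.0 kb long and lies between Dcst2 and Lenep, and Runx3 is 57.3 kb long and lies between Syf2 and Clic4. The windows are longer than the genes, so a peak in a window need not belong to the gene that names it.

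Some properties of the lists touch every comparison. The 5 lists differ in length by a factor that the read depth may set, and the depth is unknown, since no counts per library are given. Transgenic SOX13lo has the shortest list and DP the longest. Peaks carry a whole-number score whose meaning no label states, so a score is given only as its percentile, the share of peaks in the same list with a lower score. A percentile of 0 is the lowest score of a list. The lists differ in length, so percentiles set side by side describe each list and show no change between libraries. Between 42.1% and 50.2% of the peaks of a list were 30 bp wide or less. Every line of the list deposited for SOX13lo carries a SOX13hi name, and the labels give transgenic SOX13hi and DP the same index. The sample labels were followed, so every statement about SOX13lo, and every comparison with it, rests on its label. Whether the name or the label is right was not tested.

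DP thymocytes had more peaks than every γδ library in all 3 windows, and the excess around Cd4 was the one that kept its direction under each of the ways of counting tried. The Cd4 window held 13 peaks in transgenic SOX13hi, 5 in transgenic SOX13lo, 14 in SOX13hi and 18 in SOX13lo, against 44 in DP. Around Zbtb7b there were 7, 4, 4 and 5 peaks in the same γδ libraries, against 18 in DP. The Runx3 window held 12, 7, 6 and 12 peaks in the γδ libraries, against 27 in DP. Since the DP list is the longest, these counts were scaled to list length. Around Cd4 this gave 2.03, 1.51, 2.57 and 2.67 peaks per 10000 in transgenic SOX13hi, transgenic SOX13lo, SOX13hi and SOX13lo, and 3.86 in DP.

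**Figure D1:**
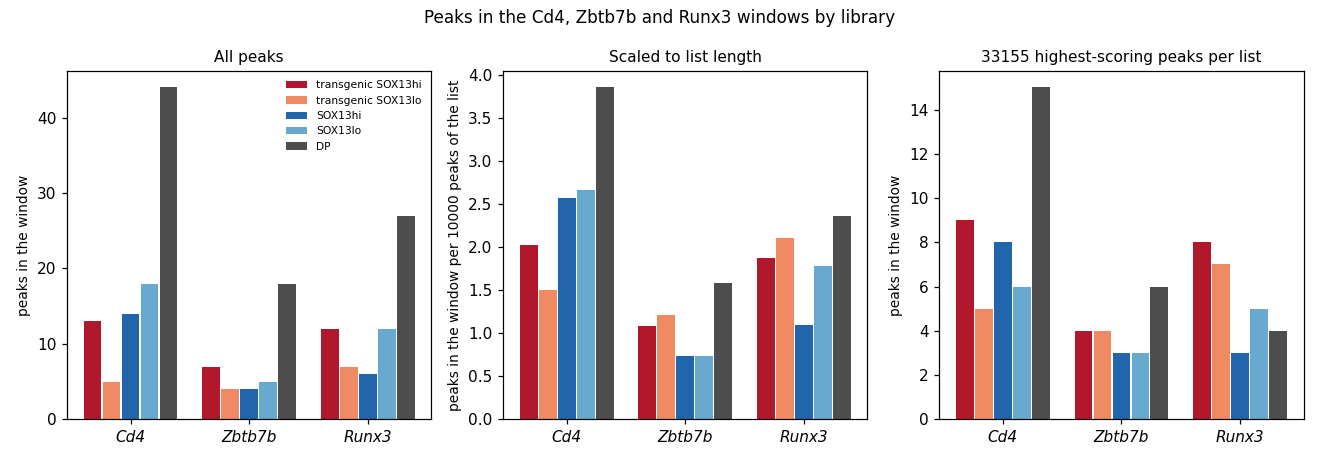
Peaks in each window (x axis) by library (bars), as counts of all peaks (left), per 10000 peaks of the library's list (middle) and among the 33155 highest-scoring peaks of each list (right). DP is the highest bar for all 3 genes in the left and middle panels, while in the right panel it is the highest for Cd4 (15 peaks) and Zbtb7b (6) and not for Runx3 (4).

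As ratios of scaled counts over DP, the Cd4 window of transgenic SOX13hi stood at 0.526 (95% interval 0.26 to 0.995) and that of transgenic SOX13lo at 0.39 (0.121 to 0.982). The ratio was 0.666 (0.337 to 1.24) in SOX13hi and 0.69 (0.375 to 1.22) in SOX13lo. All 4 lie below 1, but only the intervals of the transgenic pair stay below it. These are exact conditional binomial intervals, which cover counting error only. They treat each peak as independent and were not adjusted for the 12 ratios over DP that were looked at. A ratio below 1 was common over the genome. In 4484 windows of 100 kb tiled along the genome, each with at least 10 DP peaks, the median ratios were 0.846, 0.859, 0.837 and 0.844. The order is transgenic SOX13hi, transgenic SOX13lo, SOX13hi and SOX13lo. Of these windows, 20.1%, 21.4%, 36.6% and 34.1% had a lower ratio than the Cd4 window. The Zbtb7b ratios were 0.693, 0.763, 0.465 and 0.469 in transgenic SOX13hi, transgenic SOX13lo, SOX13hi and SOX13lo, with intervals that all include 1 (from 0.114 at the lowest to 2.32 at the highest). Those of Runx3 were 0.792, 0.89, 0.465 and 0.75, again with 1 inside every interval (0.157 to 2.1 over all 4).

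With the 33155 highest-scoring peaks of each list, Cd4 held 9 peaks in transgenic SOX13hi, 5 in transgenic SOX13lo, 8 in SOX13hi and 6 in SOX13lo, against 15 in DP. Zbtb7b then held 4, 4, 3 and 3 against 6 in DP. Runx3 held 8, 7, 3 and 5 in the γδ libraries against 4 in DP, so 3 of its 4 ratios lay above 1 (transgenic SOX13hi 2, transgenic SOX13lo 1.75 and SOX13lo 1.25) and 1 below it (0.75 in SOX13hi). The DP excess around Runx3 therefore turned with the length of the lists.

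The flanks, stretches as long as the window on either side of it, show what the neighbourhood does. Around Cd4 the 2 flanks together held 37 peaks in transgenic SOX13hi, 19 in transgenic SOX13lo, 38 in SOX13hi and 46 in SOX13lo, against 61 in DP. Scaled to list length, these gave ratios of 1.08, 1.07, 1.3 and 1.27 over DP, above 1 where the window itself was below it, with intervals that all include 1 (0.604 to 1.99 over all 4). The sides were unlike. The left flank held 24, 11, 24 and 34 peaks in the γδ libraries against 46 in DP, and the right 13, 8, 14 and 12 against 15. Relative to list length, the left flank alone was below DP in both transgenic libraries, and the right was above DP in all 4. Set against its own flanks, the odds ratio of the Cd4 window to DP was 0.487 (0.213 to 1.08) for transgenic SOX13hi and 0.365 (0.0995 to 1.12) for transgenic SOX13lo. It was 0.511 (0.228 to 1.11) for SOX13hi and 0.542 (0.26 to 1.11) for SOX13lo. This measure was added after the data were seen. All 4 values lie at or below 0.542, and all 4 intervals include 1. With lists of equal length the odds ratios were 0.443, 0.298, 0.394 and 0.296 for transgenic SOX13hi, transgenic SOX13lo, SOX13hi and SOX13lo, again with 1 inside every interval.

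Zbtb7b differed from Cd4 in this respect. Its flanks held 11, 4, 2 and 9 peaks in transgenic SOX13hi, transgenic SOX13lo, SOX13hi and SOX13lo, against 31 in DP. Their ratios over DP were 0.632, 0.443, 0.135 and 0.49, below 1 like those of the window. The interval of SOX13hi (0.0157 to 0.53) was the only one of the 4 without 1. Around Runx3 the flanks held 10, 10, 11 and 11 peaks in the γδ libraries against 26 in DP, with ratios of 0.685, 1.32, 0.885 and 0.714. Relative to the flanks, the γδ libraries lay on both sides of DP for Zbtb7b (0.957 to 3.44) and for Runx3 (0.525 to 1.16) in the full lists. With lists of equal length none lay below DP, with odds ratios of 2.17 to 3.25 for Zbtb7b and 1 to 2.67 for Runx3. Every one of these intervals includes 1, and the largest of them runs from 0.276 to 46.3.

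**Figure D2:**
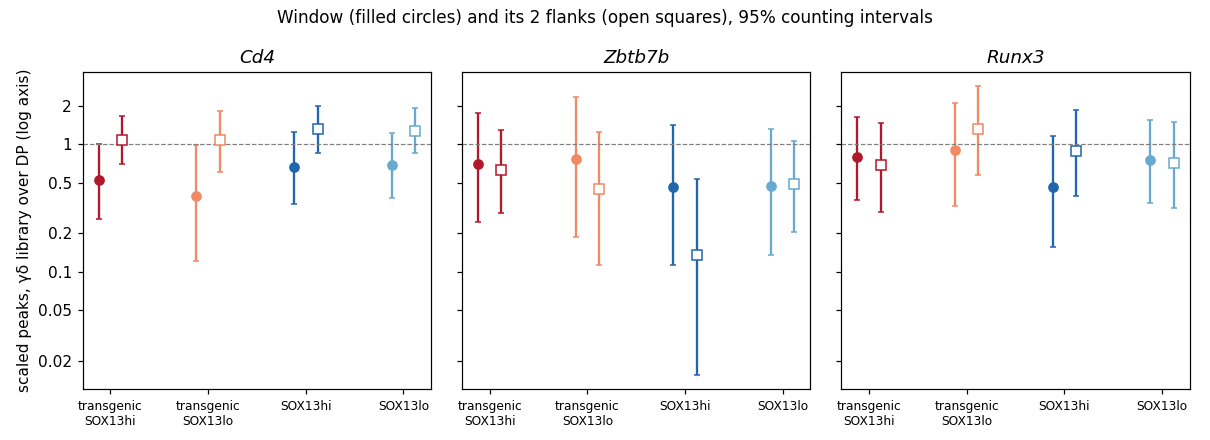
Scaled peaks in each γδ library over DP (y axis, log scale) for each window (filled circles) and for its flanks together (open squares), with 95% intervals for counting error. For Cd4 the 4 circles lie between 0.39 and 0.69 and the 4 squares between 1.07 and 1.3, whereas for Zbtb7b and Runx3 circles and squares overlap in range.

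The Cd4 window was also among the denser of the windows that held peaks. Windows tiled along the genome were counted where any library had a peak. Those empty in every library were left out, for each window length, so the shares are not over the whole genome. Of 13753 such windows of 100 kb, the share with fewer peaks was 92.8% for transgenic SOX13hi, 81.3% for transgenic SOX13lo, 96.2% for SOX13hi and 96.8% for SOX13lo. For the 44 DP peaks it was 99.2%. For Zbtb7b, the γδ libraries exceeded 63.5% to 78.8% of 16053 such windows of 80 kb, and DP 90.5%. For Runx3, the γδ libraries exceeded 61.1% to 82.6% of 9827 such windows of 160 kb, and DP 88%. Of the windows with at least 10 DP peaks, 18% to 46.4% had a lower ratio over DP than the Zbtb7b window. For Runx3 this share was 17.7% to 50%.

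The DP regions that a γδ library lacked were next set against the same share over the genome. Around Cd4, transgenic SOX13hi lacked 34 of 44 DP regions (77.3%, exact Clopper-Pearson interval 62.2 to 88.5), against 69.4% over all 110291 DP regions. Transgenic SOX13lo lacked 40 of 44 (90.9%, against 82.8% genome-wide). SOX13hi and SOX13lo each lacked 33 of 44 (75%), against 73.2% and 67.1% genome-wide. The background lies inside the interval of each share, which was 78.3 to 97.5 for transgenic SOX13lo and 59.7 to 86.8 for SOX13hi and for SOX13lo. Zbtb7b and Runx3 gave shares on both sides of the background, with 12 of 18 and 17 of 26 DP regions absent from transgenic SOX13hi, and 14 of 18 and 21 of 26 absent from transgenic SOX13lo. SOX13hi lacked 15 of 18 and 22 of 26, and SOX13lo 14 of 18 and 18 of 26.

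All 4 γδ libraries lacked 31 of the 44 DP regions around Cd4 (70.5%, 54.8 to 83.2), 11 of 18 around Zbtb7b (61.1%, 35.7 to 82.7) and 14 of 26 around Runx3 (53.8%, 33.4 to 73.4). The share over the genome was 57.6%. With lists of equal length the numbers were 7 of 15 for Cd4 (46.7%), 2 of 6 for Zbtb7b (33.3%) and 0 of 4 for Runx3, against 26.6% over the genome. In the full lists, the 3 numbers were unchanged without the transgenic SOX13lo library, and without SOX13lo they were 32, 12 and 16. Most of these DP-only regions scored low, with a median percentile of 27.7 for Cd4, 48.5 for Zbtb7b and 37.9 for Runx3, and 27.7 over the genome. Cd4 also had DP-only regions of high score. Of its 15 DP regions at or above the 75th percentile, 5 were absent from all γδ libraries (33.3%, 11.8 to 61.6), against 12.5% of such regions over the genome. None of the 5 such regions around Zbtb7b, and none of the 3 around Runx3, was absent from all γδ libraries. With so few regions these shares carry wide intervals, up to 52.2% for Zbtb7b and up to 70.8% for Runx3.

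Within the Cd4 window, the highest-scoring DP region was shared by all 5 libraries. It spans 124849875 to 124851325 on chromosome 6. In it, the highest-scoring peak of transgenic SOX13hi had a percentile of 88 and a width of 278 bp, and that of transgenic SOX13lo 75.4 and 158 bp. The highest-scoring of 3 SOX13hi peaks had 84.2 and 47 bp, and the SOX13lo peak had 84.6 and 311 bp. The single DP peak had a percentile of 99.1 and a width of 1451 bp. Every library thus had a peak above its 75th percentile there, and the DP peak was the widest. Around this region lay 5 further DP regions within 2 kb, all absent from the γδ libraries and none above a percentile of 62.5. Regions of this kind are common, since 57.6% of DP regions genome-wide are absent from all 4 γδ libraries and their median percentile is 27.7.

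The other regions held by all 5 libraries were at the left edge of the window and to the right of the main region. At 124853671 to 124853810, 3.1 kb away, the percentiles were 72.7 in transgenic SOX13hi, 0 in transgenic SOX13lo, 56.4 in SOX13hi and 46.5 in SOX13lo, against 95.9 in DP. At 124867302 to 124867496, 16.8 kb away, the γδ percentiles were 73.7, 45.4, 46.4 and 78.4 in the same order, and that of DP was 83.4. The left edge region, which ends at 124780258, was high in every library, with percentiles of 87.5, 87.9, 88.9 and 93.8 in the γδ libraries and 92 in DP. DP did not have the highest percentile there.

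A pair of neighbouring regions at -15.2 and -14.5 kb from the main one was present in DP and in 3 γδ libraries, all but transgenic SOX13lo. At 124835377 to 124835425 the percentiles were 74.7 in transgenic SOX13hi, 86.1 in SOX13hi and 50 in SOX13lo, against 93.9 in DP. At 124835913 to 124836222 they were 62.5, 67.4 and 72.5 in those γδ libraries, against 87.2 in DP. SOX13lo, but no other library, had small peaks directly beside them at 124835268 to 124835295 and 124836250 to 124836334.

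The DP-only regions of high score lay to both sides. The 5 with the highest percentiles were at 124813568 to 124813777 (89.9), 124829517 to 124829642 (89.8), 124813963 to 124814327 (89.6), 124868081 to 124868221 (78.3) and 124838179 to 124838239 (77.4). The first and the third of them belong to a dense stretch of 2.7 kb, from 124812482 to 124815181. In it transgenic SOX13hi and SOX13hi had 1 region each, at 124813001 to 124813166, with percentiles of 70.3 and 0 against 92.2 in DP. Transgenic SOX13lo and SOX13lo had none there, and DP had 10. The stretch was picked out after its values were seen, and its 9 DP-only regions of 10 stand beside the 57.6% of the genome.

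**Figure D3:**
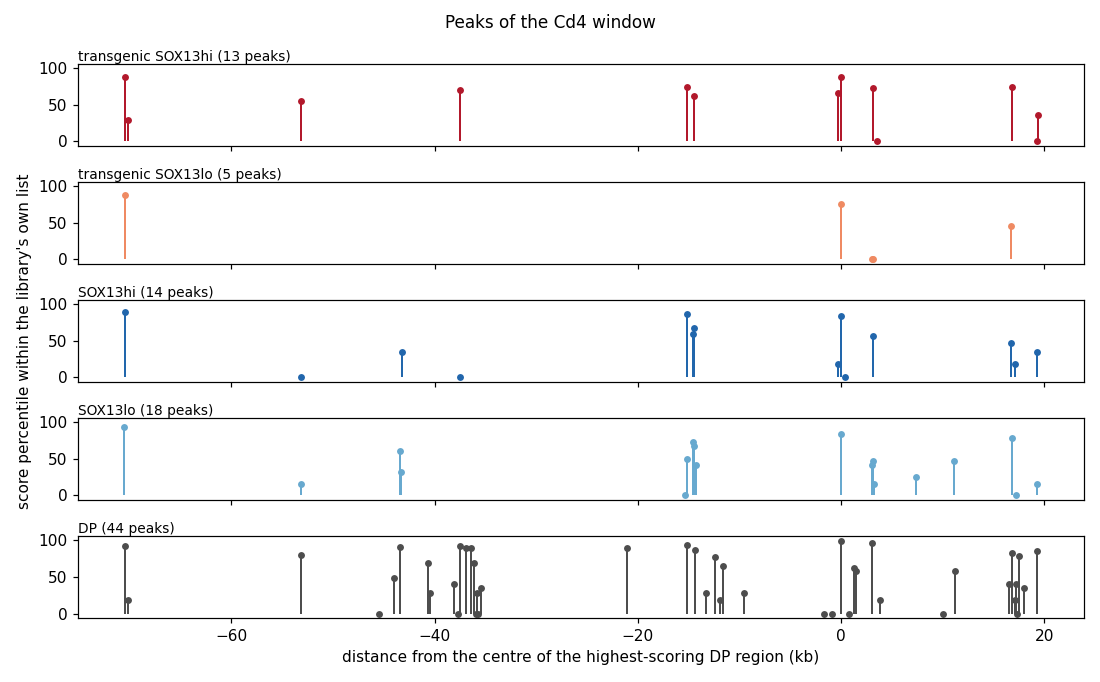
Each peak of the Cd4 window by library, with its distance from the centre of the highest-scoring DP region (x axis, kb) and its score percentile within its own list (y axis, stem height, with a dot on the baseline for the lowest score). The 5 libraries share the peak at 0 kb, while the run of DP peaks between -38.1 and -35.4 kb has 1 counterpart in transgenic SOX13hi and in SOX13hi and none in the SOX13lo libraries.

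Regions that γδ libraries had and DP lacked were few around Cd4. There were 6 among 50 regions (12%, against 29.9% over the whole series), and 5 of them were in 1 γδ library each. Of the regions around Cd4, DP lacked 1 of 11 in transgenic SOX13hi, 1 of 5 in transgenic SOX13lo, 0 of 11 in SOX13hi (0%, up to 28.5%) and 5 of 16 in SOX13lo. Over the genome DP lacked 36.4%, 23.6%, 32.8% and 38.2% of the regions of these libraries, in the same order. The 1 region that 2 γδ libraries shared, at 124853617 to 124853664, had a percentile of 0 in transgenic SOX13lo and 42.2 in SOX13lo, and lay 6 bp from a region that all 5 libraries had. No region of the 3 windows was present in all 4 γδ libraries and absent from DP, a class that holds 0.694% of the regions of the whole series, so a count of 0 among 104 regions does not set these windows apart.

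The Zbtb7b window had its highest-scoring regions in its last 15 kb, and there the γδ libraries and DP had peaks in common. Both regions held by all 5 libraries lie there. Whether they lie at Zbtb7b itself, the gene of ThPOK, could not be told without mm9 gene positions. At 89222182 to 89222515 on chromosome 3 the percentiles were 91.2 in transgenic SOX13hi, 89.7 in transgenic SOX13lo, 74.8 in SOX13hi and 90.3 in SOX13lo, against 96.5 in DP. The peak there was 334 bp wide in transgenic SOX13hi and 37 bp wide in DP. At 89215738 to 89216030 the γδ percentiles were 91.6, 83.9, 79.2 and 82, in the same order, against 94.2 in DP. SOX13hi had the lowest percentile in both regions.

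Left of these, between 89158842 and 89200528, DP had 8 regions, of which the γδ libraries met 2. The bounds were picked after the values were seen, and 57.6% of DP regions genome-wide are absent from all 4 γδ libraries. SOX13lo had a peak at the lowest score of its list at 89192880 to 89192970, where the DP percentile was 79.6. Both transgenic libraries, and neither non-transgenic one, had a peak at 89200214 to 89200380, with percentiles of 70.3 in transgenic SOX13hi and 30.9 in transgenic SOX13lo against 66.8 in DP. The same pair and DP also shared 89222644 to 89222882, where the percentiles were 19 and 0 against 75 in DP. At 89153913 to 89154050 peaks were present in transgenic SOX13hi (64.4), SOX13hi (28) and SOX13lo (58.7), against 89.1 in DP.

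The 5 highest DP-only regions of Zbtb7b were of middling score. They were at 89182339 to 89182527 (percentile 72), 89183812 to 89183839 (56.7), 89200501 to 89200528 (51.7), 89215544 to 89215672 (51.7) and 89158842 to 89158894 (48.5). The 2 regions that DP lacked, 1 in transgenic SOX13hi at 89183473 and 1 in SOX13lo at 89154325, were 28 bp wide and had the lowest score of their list. They were 10% of the 20 regions of the window, against 29.9% over the whole series.

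**Figure D4:**
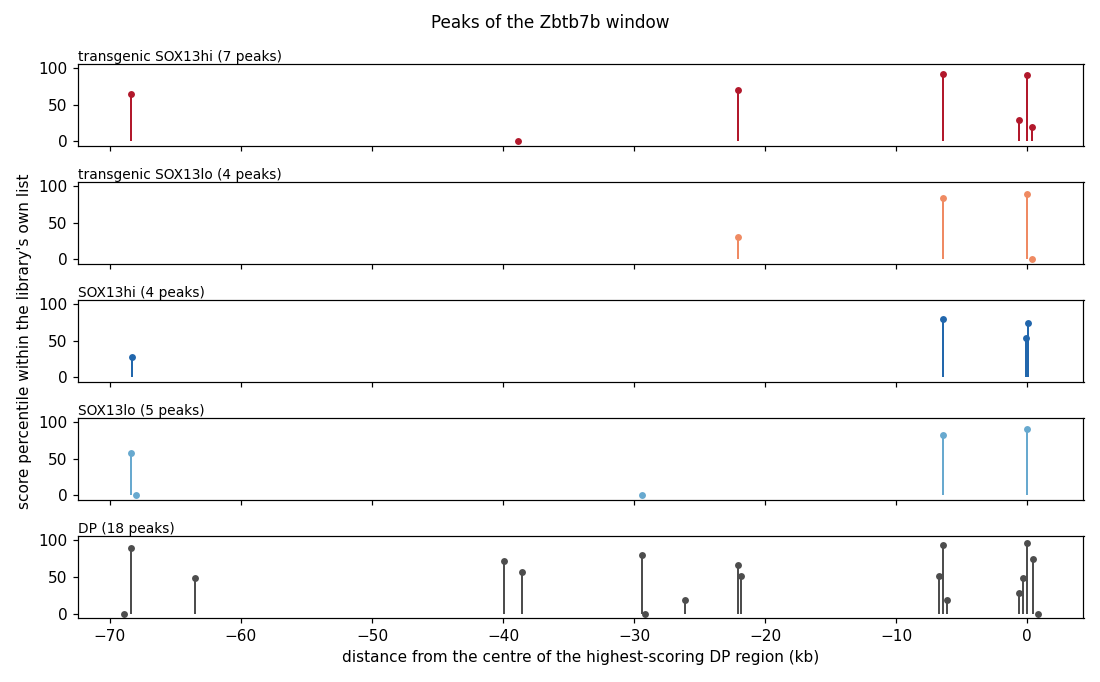
Each peak of the Zbtb7b window by library, with its distance from the centre of the highest-scoring DP region (x axis, kb) and its score percentile within its own list (y axis). All 5 libraries have peaks near -6.5 kb and 0 kb, and between -63.5 and -21.8 kb DP has 8 regions while the γδ libraries meet 2 of them.

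In covered length Zbtb7b ran the other way in the transgenic libraries. Its peaks covered 1108 bp in transgenic SOX13hi and 418 bp in transgenic SOX13lo, against 1259 bp in DP. The lists cover 5.865 Mb in transgenic SOX13hi, 2.652 Mb in transgenic SOX13lo, 5.237 Mb in SOX13hi, 7.135 Mb in SOX13lo and 11.82 Mb in DP. As bp per Mb covered by the list Zbtb7b had 189 in transgenic SOX13hi and 158 in transgenic SOX13lo, against 107 in DP, or ratios of 1.77 and 1.48. SOX13hi and SOX13lo had 47.9 and 38.4 bp per Mb. The covered length around Cd4 was below DP in each γδ library, with 181, 102, 98.9 and 296 bp per Mb in transgenic SOX13hi, transgenic SOX13lo, SOX13hi and SOX13lo, against 459 in DP. So was that around Runx3, with 157, 155, 45.4 and 134 against 210.

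The best DP region of Runx3 ranked lower in its list than those of Cd4 and Zbtb7b. The region, at 134762166 to 134762465 on chromosome 4, was present in transgenic SOX13hi (percentile 74.7), transgenic SOX13lo (68.4) and SOX13lo (60.4), absent from SOX13hi, and at a percentile of 90.9 in DP. The 3 regions that all libraries held were at 134676126 to 134676573, 134636391 to 134636609 and 134635811 to 134636052. At the first of them the percentiles were 58 in transgenic SOX13hi, 64.2 in transgenic SOX13lo, 18.3 in SOX13hi and 83.3 in SOX13lo, against 88.9 in DP. At the last, transgenic SOX13hi (74.7) and SOX13hi (71.1) had a higher percentile than DP (65.5), and transgenic SOX13lo (61.8) and SOX13lo (56.9) a lower one.

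SOX13hi had the fewest Runx3 peaks of any library, 6, of which 5 were 30 bp wide or less. It lacked 2 regions that the other 4 libraries shared, at 134762166 to 134762465 and at 134706458 to 134706574. At 134706458 the percentile of transgenic SOX13hi was 60.3, that of transgenic SOX13lo 50.9 and that of SOX13lo 0, against 48.5 in DP. A stretch of 3.2 kb from 134708343 to 134711519 held 10 regions. Of these, 2 were in transgenic SOX13hi, 0 in transgenic SOX13lo, 1 in SOX13hi and 2 in SOX13lo, against 7 in DP. This stretch, too, was picked out after its values were seen. Its 6 DP-only regions of 7 stand beside the 57.6% of the genome. Within the stretch, DP shared 134708343 to 134708467 with γδ libraries. The percentiles there were 62.5 in transgenic SOX13hi and 46.5 in SOX13lo against 74.4 in DP.

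The 5 highest DP-only regions of Runx3 were at 134684795 to 134684991 (percentile 69.1), 134734984 to 134735127 (58.8), 134671405 to 134671548 (54.4), 134708829 to 134708951 (51.7) and 134709528 to 134709555 (51.7). DP lacked 8 of the 34 regions around Runx3 (23.5%, against 29.9% over the whole series). Each was in 1 γδ library, with 2 in each. Over the whole series, 37069 of the 47143 regions that DP lacked were in 1 γδ library. Of the 8 around Runx3, 7 were 30 bp wide or less. The highest was at 134759372 to 134759399 in transgenic SOX13hi, with a percentile of 58. In transgenic SOX13lo the region at 134697055 to 134697082 had a percentile of 50.9, and in SOX13hi that at 134710248 to 134710276 had 41.2. SOX13lo had 134654403 to 134654430 and 134710471 to 134710538, both at a percentile of 16.1.

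**Figure D5:**
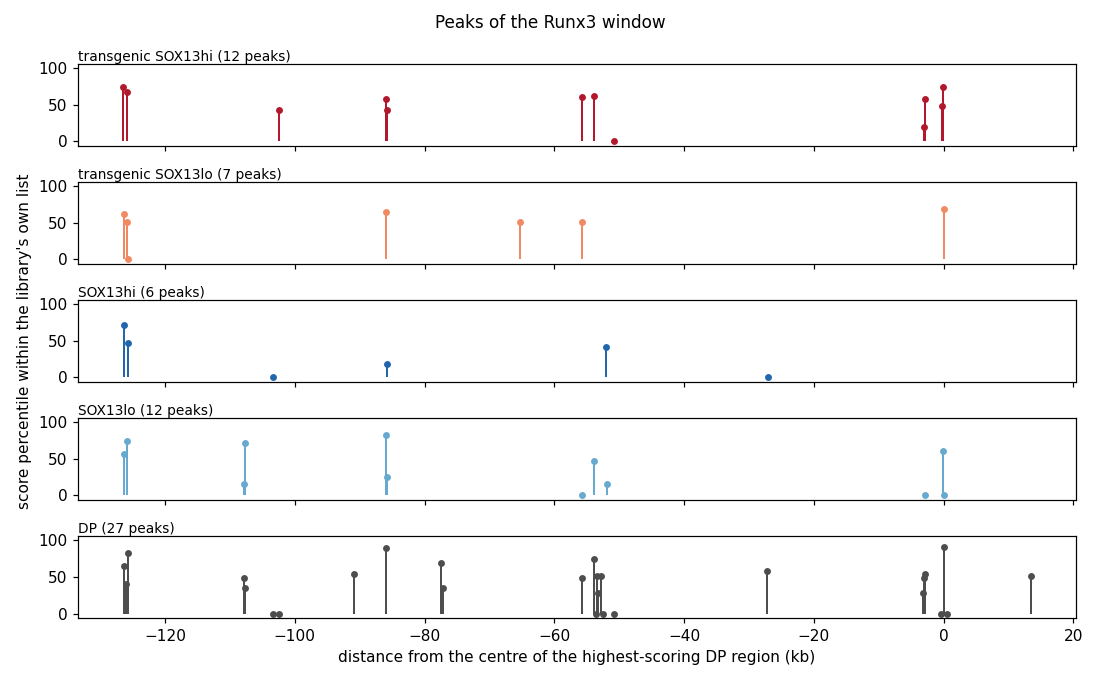
Each peak of the Runx3 window by library, with its distance from the centre of the highest-scoring DP region (x axis, kb) and its score percentile within its own list (y axis). Peaks near -126 and -86 kb occur in all 5 libraries, and SOX13hi has no peak at 0 kb.

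Among the γδ libraries the counts were too small to separate fractions or genotypes. For SOX13hi over SOX13lo with the transgene, the scaled ratios were 1.35 for Cd4 (0.451 to 4.83), 0.908 for Zbtb7b (0.231 to 4.23) and 0.889 for Runx3 (0.323 to 2.67). Without the transgene they were 0.964 (0.444 to 2.05), 0.992 (0.197 to 4.61) and 0.62 (0.191 to 1.78). For transgenic over non-transgenic SOX13hi cells the ratio was 0.791 for Cd4 (0.342 to 1.81), 1.49 for Zbtb7b (0.379 to 6.94) and 1.7 for Runx3 (0.592 to 5.53). For transgenic over non-transgenic SOX13lo cells the ratio was 0.565 for Cd4 (0.164 to 1.58), 1.63 for Zbtb7b (0.323 to 7.56) and 1.19 for Runx3 (0.396 to 3.27). By these ratios, in both fractions the transgenic library lay below the non-transgenic one around Cd4 and above it around Zbtb7b and Runx3. For Cd4 in SOX13hi cells the direction turned with the measure. With lists of equal length the transgenic library held 9 peaks against 8, and it covered 181 against 98.9 bp per Mb. Every interval of these ratios includes 1, so a difference was not detectable at these counts.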

How the data were processed

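Accessible chromatin was measured by ATAC-seq in 5 libraries, 1 per group, grouped by sample title. Per the labels' protocols, nuclei were transposed with Illumina transposase and fragments amplified with Nextera indexing primers. For each library the authors deposited a list of peaks without a header, in which every peak has a whole-number score. The submitters' processing notes name mm9 as the build. How reads were aligned, how peaks were called and at what threshold is not given in the sources used here, and neither is the depth. The other deposited columns used are the start and end of each peak, and the name field was used only to check labels.

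Peaks overlapping a window by 1 bp were counted, scaled per 10000 peaks of the list, and compared with DP as ratios with exact conditional 95% binomial intervals. Shares have Clopper-Pearson intervals. Regions were merged over the 5 lists. Flanks have the window's length on each side. A flank peak was counted by its centre, so a peak across a window edge can count in both. This was so for SOX13lo at Cd4, where the window held 18 peaks by overlap and 17 by centre. Regions were named by a rule: up to 5 in DP alone, in all 5 libraries, and in γδ libraries but not DP, by score percentile. Some further regions were named after their values were seen. Alternatives were the 33155 highest-scoring peaks of each list (ties in file order), the upper 50% by score, peaks over 30 bp, joining within 150 bp, peak centres, sharing within 200 bp, a reciprocal overlap of 50%, scaled covered bp and, added after seeing the data, scaling to the flanks in full lists and in lists of equal length. The members and windows were chosen with earlier results of these data known. The planned check of sort markers and of other pathway genes needs mm9 gene positions and was not analysed here. The functions were tested on simulated lists. Tables were handled in Python 3.11.15 with pandas 2.3.3 and numpy 2.4.6, intervals came from scipy 1.17.1, and plots from matplotlib 3.10.9.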

Additional observations from a re-analysis of the deposited data

Results flagged for a closer look

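For Cd4, the scaled count of SOX13hi over SOX13lo was 1.35 with the Sox13 transgene (13 against 5 peaks, interval 0.451 to 4.83) and 0.964 without it (14 against 18 peaks, interval 0.444 to 2.05). The fractions thus stood in opposite order in the 2 genotypes in the full lists. Among the 33155 highest-scoring peaks of each list the order was the same in both. SOX13hi then had 9 peaks against 5 in SOX13lo with the transgene, and 8 against 6 without it. The difference between the ratios was not tested, since each rests on 1 library per fraction, and both intervals include 1.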

How the results depend on the processing

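The 96 recomputed values were ratios of peaks or of covered bp over DP, and odds ratios relative to the flanks. Of them, 83 stayed inside the counting interval of the reported peak ratio and 75 lay below 1. Those intervals are wide and several settings reuse most of the same peaks, so the 83 are not independent checks. No paired analysis was possible because each group has 1 library. For Cd4 every alternative left all 4 γδ libraries below DP. The values at or above 1 were all for Zbtb7b or Runx3, among them the Runx3 ratio of transgenic SOX13hi, 2 with lists of equal length. With peaks over 30 bp SOX13hi gave 0.178 for Cd4 and 0.139 for Runx3, and scaled covered bp gave 0.216 for Cd4 in SOX13hi and 1.77 for Zbtb7b in transgenic SOX13hi. The upper 50% by score gave 0.149 for Runx3 in SOX13hi, and scaling to the flanks 3.44 for Zbtb7b in SOX13hi. Scaling to the flanks with lists of equal length gave 0.296 for Cd4 in SOX13lo, 2.89, 3.25 and 2.17 for Zbtb7b in transgenic SOX13hi, SOX13hi and SOX13lo, and 2.67 and 2.5 for Runx3 in transgenic SOX13hi and SOX13lo. The cause was not tested.

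Shares of DP regions absent from γδ libraries depended on the list length and the overlap rule, and so did the shares over the genome. With lists of equal length they were 53.3% for Cd4 in transgenic SOX13hi, and 46.7% for Cd4 in all 4 libraries. For Zbtb7b they were 50% in transgenic SOX13lo, 50% in SOX13lo and 33.3% in all 4. For Runx3 they were 0% in transgenic SOX13hi, 25% in transgenic SOX13lo, 25% in SOX13lo and 0% in all 4, each of 4 DP regions. Over the genome they were 42.6%, 51.6%, 44.4% and 40.5% in transgenic SOX13hi, transgenic SOX13lo, SOX13hi and SOX13lo, and 26.6% in all 4. Peaks over 30 bp gave 88% for Cd4 in SOX13hi (74% over the genome), and sharing within 200 bp gave 33.3% for Zbtb7b in all 4 (36.4% over the genome). A reciprocal overlap of 50%, applied to single peaks, is the strictest rule. It gave 93.2%, 100%, 97.7%, 95.5% and 90.9% for Cd4 (transgenic SOX13hi, transgenic SOX13lo, SOX13hi, SOX13lo and all 4), 100% in each case for Zbtb7b, and 92.6%, 96.3%, 96.3%, 92.6% and 81.5% for Runx3, against 92.5%, 97.1%, 93.7%, 91.3% and 81.9% over the genome.

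Shares of γδ regions absent from DP rest on 1 to 18 regions each. The reciprocal rule gave 76.9%, 100%, 92.9% and 88.9% for Cd4, 100% in each library for Zbtb7b, and 83.3%, 85.7%, 83.3% and 83.3% for Runx3, against 85.2% to 89.9% over the genome. The share was 0% for Cd4 in transgenic SOX13lo with the upper 50% by score, peaks over 30 bp, joining and sharing within 200 bp, and for Cd4 in SOX13lo with equal lists and the upper 50%. It was also 0% for Zbtb7b in transgenic SOX13hi (upper 50%) and SOX13lo (equal lists, upper 50%, peaks over 30 bp), and for Runx3 in transgenic SOX13hi (within 200 bp), transgenic SOX13lo (peaks over 30 bp), SOX13hi (upper 50%, peaks over 30 bp) and SOX13lo (upper 50%). For Cd4 in SOX13lo it was 8.33% with joined peaks and 5.56% within 200 bp, against 30.6% and 18.7% over the genome. Over the genome the other settings named gave 12.2% to 38.5%. With 1 library per group, depth and biology behind a list's length cannot be told apart.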

Other observations

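The tiled windows of 100 kb whose scaled counts over the 5 libraries came closest to those of each gene, taken per 100 kb, were found by the smallest summed absolute log2 difference, with a pseudocount of 0.5. Each likeness is over 5 libraries only and is a description. For Cd4 they were on chromosome 12 at 74700001 (12, 5, 15 and 17 peaks in transgenic SOX13hi, transgenic SOX13lo, SOX13hi and SOX13lo, and 40 in DP; summed difference 0.423), chromosome 15 at 5100001 (0.687) and chromosome 5 at 134700001 (0.746). For Zbtb7b they were on chromosome 3 at 95700001 (9, 5, 5 and 7 peaks in the same γδ libraries, and 25 in DP; 0.339), chromosome 12 at 82000001 (0.415) and chromosome 9 at 20900001 (0.641). For Runx3 they were on chromosome 5 at 122800001 (6, 4, 4 and 7 peaks in the γδ libraries, and 17 in DP; 0.601), chromosome 6 at 134900001 (0.608) and chromosome 18 at 52600001 (0.623).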
